A study of Mus musculus with 38 samples.

Results

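The receptors and enzymes through which steroid hormones act in the brain were followed as 9 genes: the estrogen receptors Esr1 and Esr2, the progesterone receptor Pgr, the glucocorticoid receptor Nr3c1, the mineralocorticoid receptor Nr3c2, the enzymes Cyp19a1 (aromatase) and Srd5a1 (steroid 5-alpha-reductase), and the coactivators Ncoa1 and Ncoa2. They were taken by gene symbol from the count table, as 9 of its 54165 genes. RNA-seq reads were counted in the prefrontal cortex (PFC) and hypothalamus (Hypo) of adult mice on the FVB/NJ background. Ube3a2X mice were homozygous for a transgene and so carried 2 transgenic copies of Ube3a, tagged at the C terminus and active from either parent, and the controls were their WT littermates. The 20 PFC libraries were 5 of each sex and genotype, and the 18 Hypo libraries were 4 WT and 5 Ube3a2X of each sex. The 38 libraries came from 25 mice, 13 of which gave both tissues. The PFC was sampled by micropunches and the Hypo excised. RNA of the PFC was taken with the RNeasy Micro and that of the Hypo with the RNeasy Mini kit and a larger input, so that tissue and preparation cannot be told apart.

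Ube3a, the gene the transgene adds, was at 186 to 268 CPM (counts scaled to library size) in the WT and 698 to 2269 CPM in the Ube3a2X PFC. The Hypo held 105 to 349 CPM of it in the WT and 705 to 1666 CPM in Ube3a2X mice. No WT library overlapped the Ube3a2X libraries of its tissue. The tissue labels were checked with marker genes: 8 cortical markers together had 3083 to 4325 CPM in PFC and 43.1 to 69.7 CPM in Hypo libraries, and 12 hypothalamic markers 1.13 to 4.04 CPM and 544 to 2200 CPM, respectively. Each PFC library held 36.9 to 69.1 M counted reads and each Hypo library 39.0 to 380.8 M, with a median RNA integrity number (RIN) of 7.6 and 8.95, respectively. The library of Hypo WT female 471 stood apart: 8 pituitary markers summed to 4674 CPM in it and to 935 CPM at most in any other library, and Pgr, Nr3c1, Nr3c2, Ncoa1, and Ncoa2 were at 0.337 to 0.529 times the median of the other Hypo libraries. Esr2 was at 0.765 times that median and, at 0.609 CPM, just below the other Hypo libraries, the lowest of which had 0.620 CPM. Srd5a1, Esr1, and Cyp19a1 were at 0.836 to 0.969 times that median in it. The same library also had the highest hypothalamic marker sum, 2200 CPM against 1015 CPM at most elsewhere. Of the Hypo libraries it had the fewest reads (39.0 M) and the smallest share of reads on the expected strand (95.7%). Untranslated regions took 53.7% of its bases, against 44.0% at most in the other Hypo libraries. Its 5-prime to 3-prime coverage ratio, 0.489, was the lowest in the Hypo. The part of these measures in its levels was not tested. All results are therefore given with WT female 471, and some also without it. The values of the gene lists further below are given with it only.

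Steroid receptors of the nuclear receptor family are transcription factors that wait in the cell until a hormone binds them and then act on genes that carry their response elements. Their ligands reach the brain from the blood or are made there: aromatase turns androgens into estrogens, and 5-alpha-reductase reduces testosterone, progesterone, and corticosterone to other active steroids. The p160 coactivators Ncoa1 and Ncoa2 are recruited by the receptor once it is bound to its hormone. In the rodent hypothalamus and preoptic area these genes are best known for the control of reproduction, feeding, and the stress axis, and estrogen made locally by aromatase in males is part of how male behavior is organized.

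On GRCm38, Esr1 spans chr10:4611593-5005614 and Pgr chr9:8899833-8968611 on the plus strand, as does Nr3c2 at chr8:76899442-77245012. On the minus strand lie Esr2 at chr12:76120419-76177259, Cyp19a1 at chr9:54165937-54268110, Srd5a1 at chr13:69573449-69611442, Ncoa1 at chr12:4247362-4477182, and Ncoa2 at chr1:13139105-13374083. Reads were counted over the exons of each gene. Regulatory sequences are shown for Esr1, Esr2, Pgr, and Cyp19a1, whose RNA levels are described below. Promoter windows of RefSeq (GRCm38.p6), from 250 bases before to 50 bases after a start site, matched 7 of the 9 genes with 10 windows. In each line below, capitals mark one arm of an estrogen response element (GGTCA, or TGACC on the other strand) or a TATA box (TATAAA, or TTTATA on the other strand).
Esr1, chr10:4611739-4612038, plus strand: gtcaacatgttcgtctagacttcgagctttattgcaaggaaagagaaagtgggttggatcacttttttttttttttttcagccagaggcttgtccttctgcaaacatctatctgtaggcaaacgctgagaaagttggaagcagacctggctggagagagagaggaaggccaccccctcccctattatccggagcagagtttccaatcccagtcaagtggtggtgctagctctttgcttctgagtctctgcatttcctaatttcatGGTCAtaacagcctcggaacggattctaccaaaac
Esr2, chr12:76177210-76177509, minus strand: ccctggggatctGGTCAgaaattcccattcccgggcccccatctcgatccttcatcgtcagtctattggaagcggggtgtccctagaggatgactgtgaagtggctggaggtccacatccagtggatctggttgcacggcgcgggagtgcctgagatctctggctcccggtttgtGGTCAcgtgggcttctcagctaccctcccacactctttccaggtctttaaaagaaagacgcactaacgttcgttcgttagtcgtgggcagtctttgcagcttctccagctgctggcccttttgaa
Pgr, chr9:8899583-8899882, plus strand: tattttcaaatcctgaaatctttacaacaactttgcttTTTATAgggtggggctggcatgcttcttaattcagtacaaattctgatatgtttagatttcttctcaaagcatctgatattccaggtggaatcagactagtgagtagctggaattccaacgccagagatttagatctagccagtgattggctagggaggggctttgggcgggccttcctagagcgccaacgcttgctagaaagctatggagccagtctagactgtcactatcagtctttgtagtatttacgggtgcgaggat
Cyp19a1 window 1, chr9:54268115-54268414, minus strand: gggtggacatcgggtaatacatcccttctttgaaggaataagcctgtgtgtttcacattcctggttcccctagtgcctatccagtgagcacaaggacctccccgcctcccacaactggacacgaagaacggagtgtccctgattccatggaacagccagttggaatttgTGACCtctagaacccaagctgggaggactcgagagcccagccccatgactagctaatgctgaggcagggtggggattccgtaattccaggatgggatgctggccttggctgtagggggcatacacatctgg
Cyp19a1 window 2, chr9:54228865-54229164, minus strand: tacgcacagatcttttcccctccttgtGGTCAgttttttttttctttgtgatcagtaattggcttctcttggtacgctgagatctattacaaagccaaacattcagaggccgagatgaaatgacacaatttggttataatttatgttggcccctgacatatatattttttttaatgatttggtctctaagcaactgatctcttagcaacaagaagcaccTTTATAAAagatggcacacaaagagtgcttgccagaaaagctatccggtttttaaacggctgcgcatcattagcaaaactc

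The arm of the estrogen response element lay at position 15 from the start site in the Esr1 window shown, and a further Esr1 window had none. It lay at -238 and -75 in Esr2, at -81 in Cyp19a1 window 1, and at -223 in Cyp19a1 window 2. In the window of Nr3c2 it lay at -135 and -49, and Pgr had none in its window. Such an arm is common, since 40.5% of 32851 promoter windows hold one. A whole palindromic element (GGTCANNNTGACC) was in none of the 10 windows of these genes and in 0.07% of all windows. The TATA box, in 13.6% of all windows, was found at -212 in Pgr, at -31 and -29, as overlapping matches on both strands, in Cyp19a1 window 2, and at -157 and -143 in a further Cyp19a1 window. The glucocorticoid element (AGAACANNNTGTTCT) was likewise in none of the 10 windows and in 0.00913% of all windows, and a single arm of it (AGAACA, in 19% of windows) was found only in Ncoa1.

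The genes differed widely in level. Per length, as CPM per kilobase of exon (RPKM), the median in the PFC was 20.8 for Nr3c1, 18.3 for Ncoa1, 7.74 for Ncoa2, 6.68 for Pgr, 6.51 for Nr3c2, 1.11 for Srd5a1, 0.381 for Esr1, 0.0583 for Esr2, and 0.0163 for Cyp19a1. In this order the libraries overlapped between Nr3c1 and Ncoa1, among Ncoa2, Pgr, and Nr3c2, and between Esr2 and Cyp19a1, and not between the other neighbors. In the Hypo the median RPKM was 17.5 for Nr3c1, 14.5 for Ncoa1, 6.72 for Pgr, 6.64 for Ncoa2, 5.15 for Nr3c2, 1.90 for both Esr1 and Srd5a1, 0.234 for Esr2, and 0.105 for Cyp19a1. Here the gaps without overlap were those from Nr3c2 to Esr1 and from Srd5a1 to Esr2. By median, Nr3c1 and Ncoa1 were the most abundant of the 9 per length in both tissues, and Esr2 and Cyp19a1 the least.

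**Figure D1:**
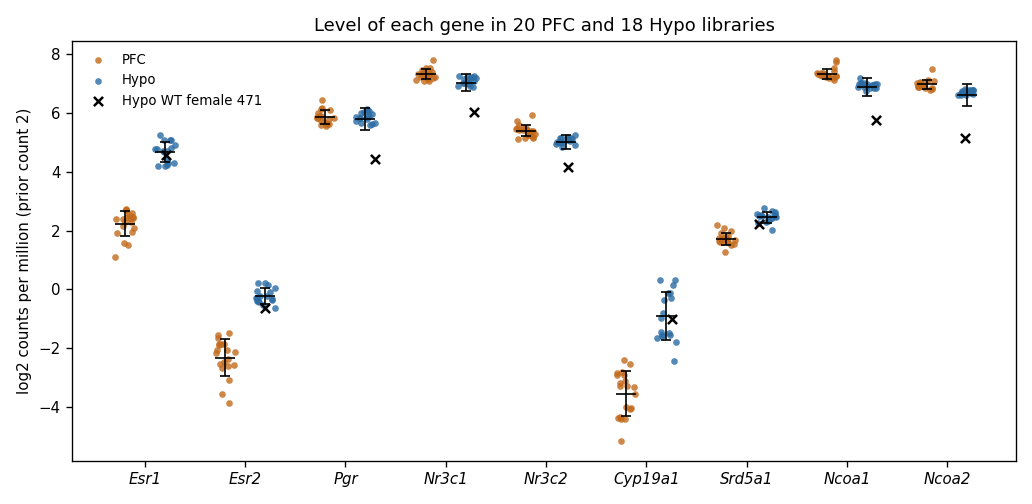
Level of each gene (y axis, log2 CPM with a prior count of 2) in the 20 PFC libraries (orange) and 18 Hypo libraries (blue), with the mean and SD of each tissue in black. Esr1 and Esr2 are higher in the Hypo by 2.37 and 2.26 on the log2 scale. Cyp19a1 passed the count filter only through its Hypo reads, so no size is given for it here. The cross marks Hypo WT female 471. It lies below the other Hypo libraries for Pgr, Nr3c1, Nr3c2, Ncoa1, and Ncoa2, and just below them for Esr2.

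Between the tissues, the estrogen receptors and the enzyme Srd5a1 were higher in the Hypo, and the corticosteroid receptors and coactivators were lower. In the edgeR quasi-likelihood test with RIN as covariate, 4 of the 9 genes were called higher and 4 lower in the Hypo, at an adjusted p under 0.05. Cyp19a1 is among the 4 higher and passed the count filter only through its Hypo reads, so its call is not taken as support. The background is high, since 63.4% of the 22282 genes tested were called, 32.4% higher and 31.0% lower, so the count of 8 of 9 is not particular to these genes, and the sizes carry the description. Leaving out Hypo WT female 471 also gave 8 of 9. With the 13 mice that gave both tissues and the mouse as a block, 5 of the 9 were called (Esr1, Esr2, Cyp19a1, Nr3c2, and Ncoa1), among 6973 genes in all. The counts of 8 and 5 each include Cyp19a1.

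Esr1, which binds estradiol and is needed for most of its actions on reproduction, had 2.14 CPM in the lowest, 5.21 in the median, and 6.69 in the highest PFC library. In the Hypo these values were 18.2, 26, and 37.7 CPM. Each of the 18 Hypo libraries was above every PFC library. The fold change was 2.37 ± 0.16 on the log2 scale (SE), or 5.17-fold (edgeR adjusted p = 2.08e-15), and 2.96 ± 0.27 with the mouse as block (adjusted p = 3.27e-06).

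Esr2, the second estrogen receptor, was counted with only 2 to 18 reads per PFC library and 26 to 451 reads per Hypo library. It was at 0.0415, 0.196, and 0.333 CPM (lowest, median, highest) in the PFC and at 0.609, 0.787, and 1.14 CPM in the Hypo. Again the tissues did not overlap. Pooled over libraries, 192 reads gave 0.172 CPM (95% exact Poisson interval 0.149 to 0.198) in the PFC and 1555 reads gave 0.986 CPM (0.938 to 1.04) in the Hypo, where the intervals cover counting error only. Pooled values, here and below, use library sizes without the scaling factors of the other CPM values, and deep libraries weigh more in them. Ube3a2X female 420 alone gave 451 of the 1555 Hypo reads. The fitted difference was 2.26 ± 0.25 on the log2 scale (edgeR adjusted p = 6.09e-10). In bulk tissue, fewer cells that transcribe a gene and less RNA per cell cannot be told apart.

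Pgr, the receptor for progesterone and a textbook target of estrogen, was not called between the tissues. It was at 47.5, 57.1, and 87.3 CPM in the PFC and 21.8, 57.4, and 70.6 CPM in the Hypo, where the lowest value is that of WT female 471 and the next is 48.4. The difference was -0.14 ± 0.14 on the log2 scale (edgeR adjusted p = 0.369), with an approximate 95% interval from -0.41 to 0.12. Without WT female 471 it was -0.08 (adjusted p = 0.447).

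Both corticosteroid receptors were lower in the Hypo. Nr3c1, the receptor that reads stress levels of corticosterone, had 135.9, 159.9, and 220.5 CPM in the PFC and 65.9, 134.4, and 154.3 CPM in the Hypo. The Hypo level was 0.752 times that in the PFC (log2 -0.41 ± 0.11, edgeR adjusted p = 0.000963). Nr3c2, which binds corticosterone with higher affinity and aldosterone, had 35.0, 42.2, and 60.2 CPM in the PFC and 17.9, 33.3, and 37.9 CPM in the Hypo, or 0.687 times the PFC level (log2 -0.54 ± 0.10, edgeR adjusted p = 2.32e-05). The tissues overlapped for both, with 9 Hypo libraries below all PFC libraries for Nr3c1 and 13 for Nr3c2. With the mouse as block, Nr3c1 was not called (-0.37 ± 0.14, adjusted p = 0.0709) and Nr3c2 was (-0.52 ± 0.18, adjusted p = 0.0431).

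Of the enzymes, Cyp19a1 was the rarer. It had 0 to 8 reads in a PFC library and 12 to 123 reads in a Hypo library, which is 0, 0.0739, and 0.159 CPM in the PFC and 0.158, 0.476, and 1.22 CPM in the Hypo. All but 1 of the 18 Hypo libraries, WT female 398, were above every PFC library. Pooled, 71 reads gave 0.0636 CPM (95% exact Poisson interval 0.0497 to 0.0803) in the PFC and 887 reads gave 0.562 CPM (0.526 to 0.601) in the Hypo. The fitted difference was 2.74 ± 0.34 on the log2 scale, 3.54 without Hypo WT male 423, and 3.86 ± 0.82 with the mouse as block. The gene entered these fits only through its Hypo reads, so its calls are not taken as support and no p is given. Its size is rough and is not ranked against those of the other genes.

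Srd5a1, the 5-alpha-reductase of the brain, was at 2.40, 3.23, and 4.51 CPM in the PFC and at 3.99, 5.53, and 6.73 CPM in the Hypo. All but 1 Hypo library lay above every PFC library. It was 1.78-fold higher (log2 0.83 ± 0.10, edgeR adjusted p = 1.14e-08) and missed the threshold with the mouse as block (0.70 ± 0.27, adjusted p = 0.0681). On 476 bases, or 16.4% of its exons, it overlaps Gm17108 on the same strand, and reads there can be left uncounted or shared.

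Both coactivators were lower in the Hypo. Ncoa1, which binds the estrogen and progesterone receptors among others, had 138.6, 157.0, and 224.6 CPM in the PFC and 54.2, 124.6, and 145.2 CPM in the Hypo. Its Hypo level was 0.689 times that in the PFC (log2 -0.54 ± 0.11, edgeR adjusted p = 6.55e-05). Ncoa2, a coactivator of the glucocorticoid receptor among others, had 111.1, 121.0, and 180.5 CPM in the PFC and 35.1, 103.9, and 113.7 CPM in the Hypo (log2 -0.39 ± 0.13, edgeR adjusted p = 0.00863). For each, 17 of the 18 Hypo libraries were below every PFC library. The mouse block left Ncoa1 at -0.53 ± 0.14 (adjusted p = 0.0119) and Ncoa2 at -0.35 ± 0.14 (adjusted p = 0.0733), and Ncoa2 also missed the threshold without Hypo WT male 423 (adjusted p = 0.0517), within the Ube3a2X libraries alone (adjusted p = 0.0628), and without a filter on low counts (adjusted p = 0.0523).

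**Figure D2:**
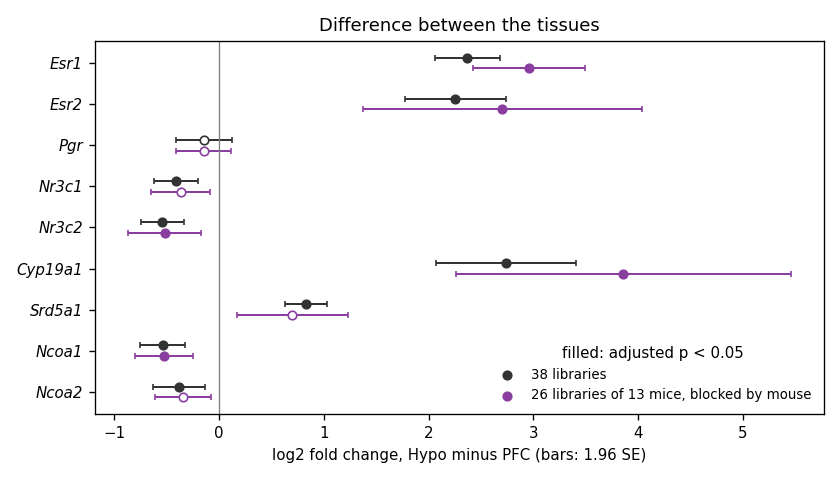
Difference between Hypo and PFC for each gene (x axis, log2 fold change, with approximate 95% intervals as bars) in the fit of all 38 libraries (black) and in the fit of 13 mice blocked by mouse (purple). Filled points passed an adjusted p of 0.05. Esr1 and Esr2 lie beyond 2 on the log2 scale in both fits, and Pgr spans 0 in both. Cyp19a1 passed the count filter only through its Hypo reads, so its points are rough and are not taken as support.

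The tissues differed in other measures at the same time. Reads on the expected strand made up 91.5 to 99.1% of PFC and 95.7 to 99.0% of Hypo libraries' reads, and untranslated regions took a median of 47.9% and 42.1% of the aligned bases. The ratio of coverage at the 5-prime to the 3-prime end had a median of 0.442 in the PFC and 0.735 in the Hypo. Markers of thalamus, a neighbor of the hypothalamus, together had 32.1 to 56.5 CPM in PFC and 179.8 to 378 CPM in Hypo libraries, and those of choroid plexus 1.47 to 4.53 and 39.2 to 75.6 CPM. The genes in these lists differed among themselves. Of the thalamus sum, Calb2 held most (medians of 9.81 CPM in the PFC and 181 CPM in the Hypo), whereas Prkcd was at 4.92 and 5.58 CPM and Ramp3 was lower in the Hypo, at 8.08 and 1.87 CPM. Of the choroid plexus sum, Clic6 (0.242 and 35.8 CPM) and Kl (2.06 and 11.9 CPM) held most, whereas Aqp1 was at 0.532 and 0.533 CPM and Ttr, the transcript that defines that tissue, had a median of only 1.67 CPM in the Hypo. None of the pituitary markers was at 0 in every Hypo library, and their sum reached from 19.8 to 4674 CPM there, against 0.0784 to 2.36 CPM in the PFC. The part of these in the differences was not tested.

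In the Hypo, males had less Esr1 and more Cyp19a1 than females, and no other of the 9 genes was called by sex in either tissue. The background was low: 2.30% of the 11869 genes tested in the Hypo were called by sex, 1.15% higher and 1.15% lower in males, and in the PFC 0.0917% of 10900 genes. Esr2 and Cyp19a1 fell below the count filter of the study (fewer than 100 reads in 2 or more libraries) in both tissues. For these 2 genes a fit with the lower filter of edgeR's filterByExpr was read, in which 1.09% of 21311 genes were called by sex in the Hypo. In that fit the counts were 2 of the 9 genes, Esr1 and Cyp19a1.

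Esr1 in the Hypo of WT females was at 37.7, 33.8, 25.5, and 23.8 CPM and in WT males at 27.4, 25.8, 21.3, and 18.6 CPM. In Ube3a2X females it was at 34.0, 33.9, 29.8, 28.1, and 27.1 CPM and in Ube3a2X males at 26.1, 19.6, 19.5, 18.4, and 18.2 CPM. The sexes overlapped in the WT and did not overlap in the Ube3a2X libraries. All 9 males were below the female median and 6 of them below every female. The difference of males from females was -0.53 ± 0.09 on the log2 scale, or 0.694 times the female level (edgeR adjusted p = 0.0104). Within the WT it was -0.44 ± 0.15 (adjusted p = 0.341) and within the Ube3a2X libraries -0.61 ± 0.12 (adjusted p = 0.0228), and the difference between these 2 values was -0.17 ± 0.18 (adjusted p = 0.780).

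The call for Esr1 depended on the model. With RIN as the only covariate, without the 2 surrogate variables, it was -0.45 (edgeR adjusted p = 0.151) and 7 genes in all were called by sex in the Hypo, and without WT female 262, the highest library, it was -0.47 (adjusted p = 0.0636). Without WT female 471 it was -0.52 (adjusted p = 0.0209). In the PFC the value was of the same size, at -0.57 ± 0.18, and did not pass the adjustment (edgeR adjusted p = 0.378): Esr1 was at 4.43, 5.43, and 6.69 CPM in females and 2.14, 4.03, and 6.09 CPM in males, with 8 of 10 males below the female median. The sex effect on Esr1 did not differ detectably between the tissues (-0.07 ± 0.20, edgeR adjusted p = 0.907).

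Cyp19a1 in the Hypo was at 0.158, 0.312, 0.327, and 0.468 CPM in WT females and at 0.483, 0.886, 1.22, and 1.22 CPM in WT males. In Ube3a2X females it was at 0.262, 0.293, 0.304, 0.310, and 0.341 CPM and in Ube3a2X males at 0.544, 0.752, 0.791, 0.900, and 1.08 CPM. Every male library was above every female library, and the closest pair was WT female 471 and WT male 423. Pooled over libraries, 324 reads in females gave 0.327 CPM (95% exact Poisson interval 0.292 to 0.364) and 563 reads in males gave 0.961 CPM (0.883 to 1.04). Of the 324 female reads, 123 came from Ube3a2X female 420. The difference of males from females was 1.65 ± 0.17 on the log2 scale, or 3.13-fold (edgeR adjusted p = 3.39e-05). It was called within the WT (2.06 ± 0.28, adjusted p = 0.00103), within the Ube3a2X libraries (1.23 ± 0.23, adjusted p = 0.0290), and without any of the 18 libraries in turn (1.56 to 1.76).

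In the PFC the few Cyp19a1 reads were not higher in males: 44 reads in 10 females gave 0.0856 CPM (95% exact Poisson interval 0.0622 to 0.115) and 27 reads in 10 males gave 0.0449 CPM (0.0296 to 0.0653), and the gene was too low to be tested by sex there. In the fit of all 38 libraries, which Cyp19a1 entered through its Hypo reads, the fitted sex effects in the tissues were 2.44 ± 0.46 apart on the log2 scale (edgeR adjusted p = 0.0160), 1 of 15 genes called, or 0.0673% of 22282. Since its PFC side rests on reads too few to be tested there, no difference between the tissues is read from it. This call was lost without PFC Ube3a2X female 272, which holds 8 of the 44 female reads (2.22, adjusted p = 0.0620), and with the mouse as block (3.19 ± 0.73, adjusted p = 1).

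**Figure D3:**
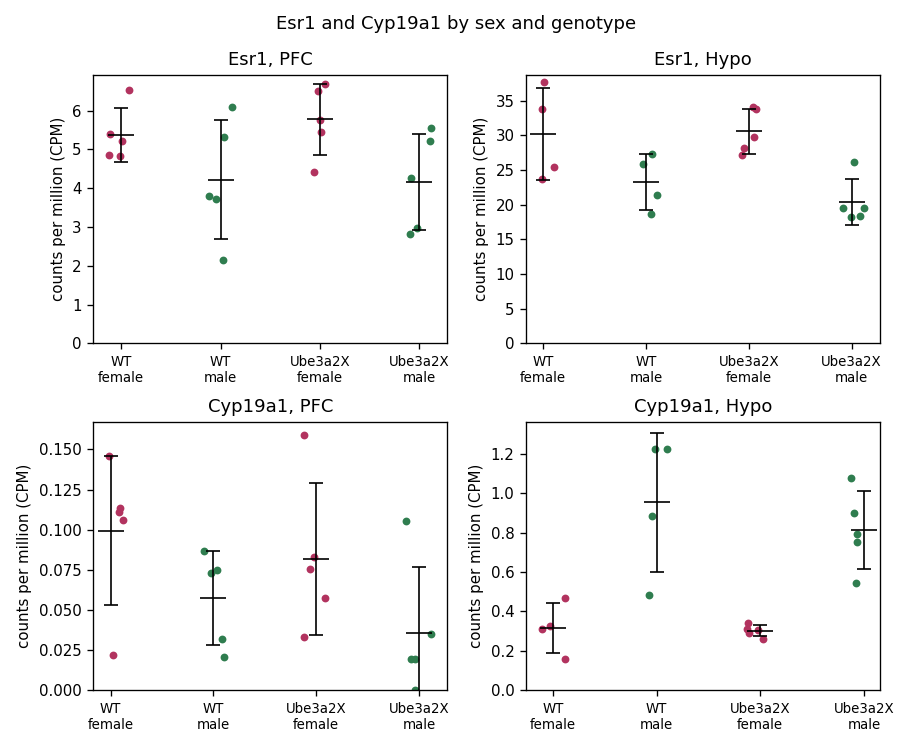
Esr1 (top) and Cyp19a1 (bottom) in the PFC (left) and Hypo (right), in CPM on axes that start at 0, by genotype and sex. Points are libraries and bars the mean and SD of 4 or 5. In the Hypo, the Cyp19a1 points of males (green, 0.483 to 1.22 CPM) lie above all those of females (red, 0.158 to 0.468 CPM), and those of Esr1 lie lower in males.

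Sums of marker genes had other medians in males than in females, with ranges that overlapped. In Hypo females the pituitary markers summed to 24.7 to 4674 CPM, with a median of 143, and in males to 19.8 to 570 CPM, with a median of 51.7. Without WT female 471 the females reached 935 CPM, with a median of 129. Of this sum Prl carried the gap (medians of 104 CPM in females and 8.6 CPM in males), whereas Gh had medians of 18.6 and 19.4 CPM. The hypothalamic markers summed to 741 to 2200 CPM in females, with a median of 905, and to 544 to 1015 CPM in males, with a median of 771. Without WT female 471 the females lay at 741 to 968 CPM, with a median of 887, within the male range. Pmch led that sum (506 and 347 CPM), whereas Nr5a1 and Fezf1, markers of the ventromedial nucleus, had the higher medians in males (13 and 18.6 CPM, and 17.9 and 22 CPM). Those of choroid plexus summed to 39.2 to 52.7 CPM in females (median 47.2) and 48.2 to 75.6 CPM in males (median 53.9), and those of blood to 70.1 to 306 CPM (median 99.4) and 55.1 to 239 CPM (median 154). Without WT female 471 the females began at 45.2 CPM for choroid plexus and reached 124 CPM for blood (medians 47.8 and 95.5). The part of these markers in the sex differences was not tested.

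For the other genes, no sex effect was called in the Hypo (adjusted p of 0.253 or higher for the 6 in the study's filter, and 0.367 for Esr2 in the filterByExpr fit, edgeR). The values nearest to the threshold were Ncoa1, at 0.07 ± 0.03 on the log2 scale (edgeR adjusted p = 0.253), with 5 of 9 males above every female, and Esr2, at -0.27 ± 0.12 (adjusted p = 0.367), with all 9 males below the female median. In the PFC, the values were 0.11 ± 0.05 for Nr3c1 and 0.14 ± 0.06 for Nr3c2 (edgeR adjusted p = 0.553 and 0.557).

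No effect of the extra copies of Ube3a was called for the 9 genes in the Hypo, or for the 8 that could be tested in the PFC, where Cyp19a1 was too low. Ube3a itself differed between genotypes by 2.33 ± 0.16 on the log2 scale in the PFC (edgeR adjusted p = 1.09e-06) and by 1.97 ± 0.18 in the Hypo (adjusted p = 0.000599). In all, edgeR called 2 of 10900 genes (0.0183%) by genotype in the PFC and 1 of 11869 (0.00843%) in the Hypo, and 861 and 622 genes were at an unadjusted p under 0.05. Of the 7 genes above the study's filter in each tissue, 0 were called and 0 were under an unadjusted p of 0.05, and DESeq2 and limma-voom called 0 as well. In the filterByExpr fit, Esr1 in the Hypo (-0.22 ± 0.09, edgeR adjusted p = 0.734) and Esr2 in the PFC, given below, were under an unadjusted p of 0.05 and were not called. The genotype effect differed between the tissues for none of the 9 genes nor for any other (0 of 22282 genes, 0%, by edgeR, 2474 at an unadjusted p under 0.05, 34 by DESeq2, and 0 by limma-voom). The PFC libraries also differed by genotype in other measures. Reads on the expected strand had a median of 93.1% in WT (92.5 to 95.6%) and 97.8% in Ube3a2X libraries (91.5 to 99.1%). Within Ube3a2X libraries this was 99.1% in males and 93.9% in females, and within WT 93.6% and 93.1%. Intronic bases had medians of 4.49% in WT and 3.28% in Ube3a2X libraries. The part of these in the PFC results was not tested.

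By gene, Esr1 in the PFC was at a mean of 5.36 ± 0.70 CPM (SD, n = 5) in WT and 5.77 ± 0.91 CPM (n = 5) in Ube3a2X females, and 4.22 ± 1.54 CPM (n = 5) in WT and 4.16 ± 1.24 CPM (n = 5) in Ube3a2X males, a genotype effect of -0.01 ± 0.17 on the log2 scale. In the Hypo its effect was -0.20 ± 0.10 (edgeR adjusted p = 0.930). It was -0.28 ± 0.14 among males alone and -0.11 ± 0.13 among females alone. The other effects in the Hypo lay between -0.08 and -0.03 for Pgr, Nr3c1, Nr3c2, Srd5a1, Ncoa1, and Ncoa2, each with an SE of 0.03 to 0.08, so that for these genes the approximate 95% intervals reached no further than -0.23 and 0.08. In the PFC the values of the same 6 genes lay between -0.09 (Nr3c2) and 0.03 (Ncoa1), with intervals within -0.21 and 0.17. The signs in the Hypo rested on the surrogate variables: with RIN as the only covariate, the values of Pgr, Nr3c1, Nr3c2, Ncoa1, and Ncoa2 lay above 0, between 0.10 and 0.16, and none was called (edgeR adjusted p of 0.597 or higher).

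For Esr2 and Cyp19a1, read from the filterByExpr fit, the Hypo effects were 0.08 ± 0.13 and -0.21 ± 0.18. In the Hypo, Cyp19a1 of WT and Ube3a2X libraries differed in males by -0.63 ± 0.24 (edgeR adjusted p = 0.382) and in females by 0.20 ± 0.26 (adjusted p = 1), and the difference of these values did not pass (-0.83 ± 0.37, adjusted p = 0.622). That difference was -0.43 with RIN as the only covariate (edgeR adjusted p = 0.999), and on leaving out 1 library it ran from -1.14 (without WT female 410) to -0.60 (without WT female 398) and was called in none. In the PFC, Esr2 was at -0.65 ± 0.31 on 2 to 18 reads per library (edgeR adjusted p = 0.455) and at -0.29 with RIN as the only covariate (adjusted p = 0.820), and Cyp19a1 could not be tested.

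**Figure D4:**
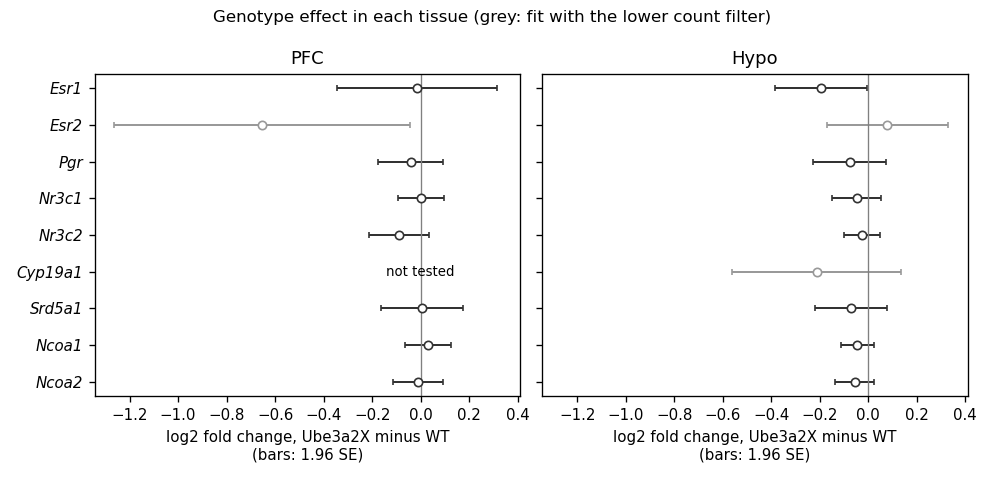
Genotype effect, Ube3a2X minus WT over both sexes (x axis, log2 fold change, with approximate 95% intervals as bars), for each gene in the PFC and Hypo. Open points did not pass an adjusted p of 0.05, and grey points come from the fit with the lower count filter. All points for the 7 genes above the study's filter lie between -0.20 and 0.03.

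The interaction of sex and genotype, which addresses whether the extra Ube3a acts differently in the sexes, was not called for any of the 9 genes in the Hypo or the 8 tested in the PFC. It was the genotype effect in males minus that in females. edgeR and limma-voom called 0 genes (0%) in either tissue, and DESeq2 called 804 in the PFC and 0 in the Hypo. By edgeR, 2746 PFC genes and 819 Hypo genes were at an unadjusted p under 0.05. The study itself, by limma-voom with RIN and surrogate variables, reports a large set of PFC genes for this interaction and none in the Hypo. For selected genes it also reports the interaction by PCR in a separate cohort. It states fewer WT mice per sex than gave the PFC libraries here. The reason for the different PFC counts was not tested, so the absence of calls here is not read as absence of an interaction. Cyp19a1 in the Hypo, given above, and Pgr in the PFC were under an unadjusted p of 0.05, and Pgr was at -0.32 ± 0.14 (edgeR adjusted p = 0.161). Pgr in the PFC of WT females was at 47.5, 49.2, 56.8, 58.7, and 71.3 CPM and of WT males at 53.2, 55.3, 58.2, 59.4, and 68.3 CPM. In Ube3a2X females it was at 56.8, 60.0, 64.1, 71.0, and 87.3 CPM and in Ube3a2X males at 48.3, 49.2, 49.8, 52.1, and 57.3 CPM. The sexes overlapped in the WT, and those of the Ube3a2X mice overlapped only at 56.8 and 57.3 CPM. Without PFC WT female 93, the highest WT female, the interaction on Pgr was -0.49 and was called (adjusted p = 0.0276), 1 of 1624 genes called without that library, or 14.9% of the 10919 tested. Without PFC WT female 397 it was -0.07 (edgeR adjusted p = 0.882), and leaving out any other library in turn gave no call.

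The genes around the receptors moved between the tissues in both directions. Lists of 13 membrane and related receptors, 20 coregulators, 15 chaperones of the receptors, 39 genes of steroid synthesis and conversion (26 of them tested), 20 genes of the glucocorticoid response, and 15 of the estrogen response were compared with the background of 32.4% higher and 31.0% lower in the Hypo. They were chosen with earlier results of these data known, and Pgr, Nrip1, and Fkbp5 are in more than 1 list.

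Of the membrane and related receptors, 3 of 13 were higher and 6 lower in the Hypo. Paqr6, a membrane progestin receptor, was 9.09-fold higher (1.98 and 17.8 CPM as medians of PFC and Hypo), and Pgrmc1, a progesterone-binding membrane protein, 1.68-fold higher (329 and 521 CPM). Paqr9, of the same family as Paqr6, fell by 1.05 on the log2 scale, and the estrogen-related receptors Esrrb and Esrrg, which bind no estrogen, fell by 1.05 and 0.96 (edgeR adjusted p of 1.68e-06 or less for each gene named in this paragraph).

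Of the coregulators, 7 of 20 were higher and 8 lower. The arginine methyltransferases Prmt2 and Prmt1 were 2.46-fold and 1.68-fold higher, and the corepressors Nrip1 and Ncor1 fell by 0.87 and 0.85 on the log2 scale, as did the coactivator Ncoa6, by 0.69. Of the chaperones, which hold the receptors ready for hormone, 2 of 15 were higher and 8 lower. Fkbp4, the immunophilin that favors receptor activity, was 1.48-fold higher, Fkbp5, which restrains it, 1.24-fold higher, and Bag1 and Ppp5c fell by 0.94 and 0.52 on the log2 scale.

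Of the 26 genes of steroid synthesis and conversion that were tested, 6 were higher and 11 lower. Those that fell include Cyp11a1, the enzyme of side-chain cleavage that starts steroid synthesis (median 0.668 CPM in the Hypo, where it fell by 2.38 on the log2 scale), Sult2b1, which sulfates hydroxysteroids (9.36 and 2.58 CPM), and Akr1c18, which inactivates progesterone (1.10 and 0.0110 CPM). Those that were higher were led by Hsd17b1, which makes estradiol from estrone and was at only 0.130 and 0.226 CPM, Tspo, and Fdxr. Of the 39 symbols, 37 had a row in the table.

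Of the 20 glucocorticoid-response genes, 8 were higher and 7 lower, with Plin4 (4.39-fold) and Mt2 (2.28-fold) among the higher, and Zbtb16, Klf9, and Dusp1 among the lower, which fell by 1.79, 1.51, and 1.27 on the log2 scale. Of the 15 estrogen-response genes, 10 were higher and 3 lower. Their median log2 difference was 1.56 and, without Cckar and Gal, which were under 0.1 CPM in the median PFC library, 0.25, so that nothing is read from it. Among the genes with large values in this list are neuropeptide and signaling genes of hypothalamic neurons: the cholecystokinin receptor Cckar (median 0 CPM in the PFC and 7.53 CPM in the Hypo), Irs4 (0.347 and 185 CPM), and the peptide Gal (0.0847 and 38.2 CPM). The sizes for Cckar and Gal rest on PFC medians at or near 0 and are not ranked. Nell2 and Igf1 fell by 1.53 and 1.66 on the log2 scale.

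**Figure D5:**
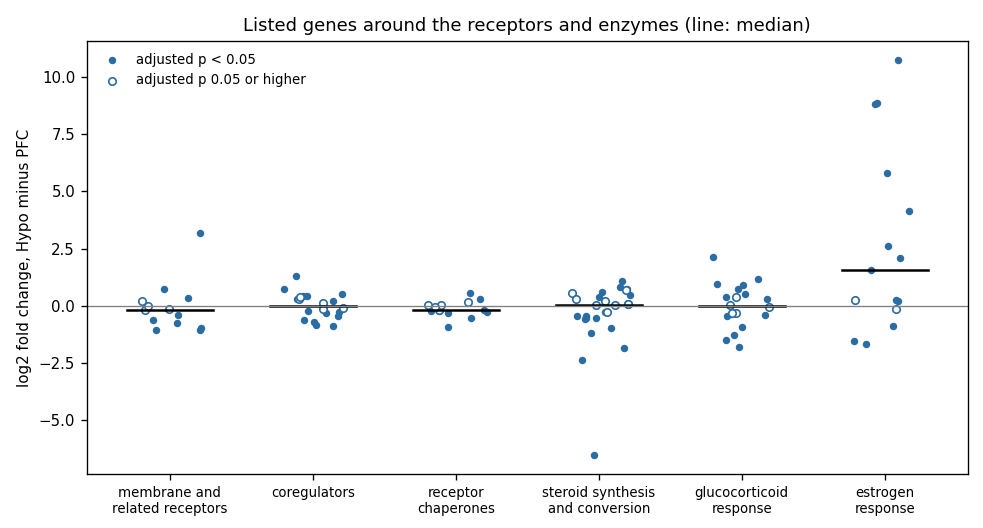
Difference between Hypo and PFC (y axis, log2 fold change) of each tested gene in the 6 lists, with the median of each list as a line. Filled points passed an adjusted p of 0.05. The line lies at 1.56 for the estrogen response, where it would be at 0.25 without Cckar and Gal, and between -0.20 and 0.03 for the other lists.

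None of the genes that edgeR called by genotype, or by sex in the PFC, is in these lists. By sex in the Hypo it called 6 of the 87 tested, or 6.9%, against 2.30% of all genes, in a fit whose calls over all genes dropped from 273 to 7 without the surrogate variables. There, Tac2, the precursor of neurokinin B, was lower in males (medians of 20.7 CPM in females and 14.0 CPM in males): it fell by 0.67 ± 0.09 (edgeR adjusted p = 0.00153). Fkbp5 was 1.36-fold higher in males (25.3 and 35.7 CPM, adjusted p = 0.00299), and Cited1, a coactivator that binds the estrogen receptor, 1.49-fold higher (14.2 and 18.1 CPM, adjusted p = 0.0124). Irs4 was 1.22-fold higher in males (adjusted p = 0.0345), and the oxytocin receptor Oxtr and the enzyme Hsd17b12 were lower, by factors of 0.836 and 0.895 (adjusted p = 0.0424 and 0.0461). Of the 13 estrogen-response genes tested there, these are 2 higher and 2 lower.

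Among the 18 Hypo libraries, with the group means subtracted, 5 of the genes varied together: Pearson's r was 0.99 between Ncoa1 and Ncoa2, 0.96 between Nr3c1 and Nr3c2, and 0.88 between Pgr and each of Nr3c1, Ncoa1, and Ncoa2. Without WT female 471 these values were 0.90, 0.84, and, for Pgr, 0.49, 0.31, and 0.27. The gene with the highest r to each of the 9 over the 18 libraries is given here with its r over them and without 471. These were Ldb2 for Esr1 (0.90 and 0.89), Slc25a13 for Esr2 (0.86 and 0.82), Gm16485 for Pgr (0.98 and 0.96), Celf1 for Nr3c1 (0.98 and 0.94), and Ntrk2 for Nr3c2 (0.98 and 0.92). They were Ccdc80 for Cyp19a1 (0.90 and 0.88), followed over the 18 libraries by the transcription factor Isl1 (0.85 and 0.83), Ppme1 for Srd5a1 (0.84 and 0.82), Vps33a for Ncoa1 (0.995 and 0.953), and Ep300 for Ncoa2 (0.995 and 0.892). Without 471, other genes came first for Esr1 (Gabrq, 0.93), Esr2 (Myrip, 0.83), Nr3c1 (Pign, 0.97), Srd5a1 (Rftn1, 0.90), and Ncoa2 (Arsb, 0.93). These values describe libraries that share a dissection and a depth each, and were chosen as the highest of 21311 genes.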

How the data were processed

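Paired-end stranded mRNA libraries (TruSeq) were aligned by the authors with STAR to GRCm38/mm10 and counted per gene with featureCounts and Gencode annotation (tool versions not given in the sources used here). The deposited counts are whole reads per gene, not normalized. The deposited quality table gave RIN as a score, shares of bases and of strand as a fraction, shown here as a percent, and the 5-prime to 3-prime coverage as a ratio, all by the authors. Groups were read from the labels' tissue, genotype and sex.

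Within each tissue, genes under 100 reads in 2 or more libraries and then the 15% with the lowest variance were removed, thresholds that the study states, although the number of genes kept differs from the study's, and edgeR 4.0.16 (R 4.3.3; TMM, quasi-likelihood) was fitted to 4 groups with RIN and 2 surrogate variables (sva 3.50.0). The tissues were compared in 1 fit of 38 libraries after filterByExpr, with RIN. A gene was called at a Benjamini-Hochberg adjusted p under 0.05. SE is the fold change divided by the root of F. Log2-CPM used a prior count of 2. Alternatives used DESeq2 1.42.0, limma 3.58.1 (voom), other filters, a replicate block and each library left out. Tissue pairs come from the same mouse; the correlation of their deviations ran from -0.31 to 0.21 (13 mice, 2 over 0.1). Pairs of libraries within a group differed by at least 9.87 times sampling noise. Exact Poisson intervals cover counting error only. The scripts were tested on simulated data. The genes and lists were chosen with earlier results of these data known, and the comparison of the sex effect between tissues, the fits of each sex or genotype alone and those with the lower filter for Esr2 and Cyp19a1 were added after the data were seen. Named list genes were taken from the 3 with the largest change in each direction among those called in a list, and the genes named for likeness from the 3 with the highest r.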

Additional observations from a re-analysis of the deposited data

Results flagged for a closer look

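In 72 groups of 4 or 5 libraries, 7 values stood apart from the rest of their group by Dixon's criterion, which chance meets in about 1 in 20 groups. Of these, 3 belong to Hypo WT female 471, the library with the highest pituitary markers: the lowest log2-CPM of Pgr (4.45), Ncoa1 (5.76), and Ncoa2 (5.14). In PFC Ube3a2X female 468, Ncoa1 (7.81) and Ncoa2 (7.50) were the highest of their group. That library held the highest CPM of Pgr, Nr3c1, Nr3c2, Ncoa1, and Ncoa2 among all PFC libraries. It also had the fewest reads (36.9 M) and the lowest 5-prime to 3-prime coverage ratio (0.265) of the PFC. The part of these in its levels was not tested. Esr1 in Hypo Ube3a2X male 404 was the highest of its group (4.71), and Cyp19a1 in PFC WT female 397 the lowest (-4.34), on 1 read.

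The fitted effects of sex on Cyp19a1 in the tissues were 2.44 apart on the log2 scale (edgeR adjusted p = 0.0160), with higher values in males in the Hypo. The gene entered that fit through its Hypo reads and was too low to be tested by sex in the PFC, where it had 71 reads in all, so this is not read as a difference between the tissues. It was not called without PFC Ube3a2X female 272 (2.22, edgeR adjusted p = 0.0620) or with the mouse as block (3.19, adjusted p = 1).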

How the results depend on the processing

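Of the results for single genes under all alternatives, 2289 kept their side of the threshold and their size or direction, 139 that were not called moved in sign, 11 lost and 1 gained a call, and none that was called changed sign. Genes called between the tissues fell to 7654 with the study's filter and 6973 with the replicate block of 13 mice, where 5 of the 9 genes were called. By the difference of the genotype effect, DESeq2 called 34 genes and the fit without RIN 1, with 0 to 250 on leaving out 1 library. By genotype the counts were 32 (DESeq2), 1 (filterByExpr) and 1 to 15 (1 library out) in the PFC, and 5, 2 and 1 to 12 in the Hypo. By sex they were 39 (DESeq2), 22 (filterByExpr), 3 (RIN only) and 5 to 16 (1 library out) in the PFC, and 662 (DESeq2), 7 (RIN only) and 83 to 663 in the Hypo. There 2 of the 9 genes were called with filterByExpr, 0 with RIN only, and 0 to 1 on leaving out 1 library. By the interaction in the PFC DESeq2 called 804 genes, and leaving out 1 library gave 0 to 1624, with 0 to 1 of the 9. By the difference of the sex effect the counts were 70 (DESeq2), 4 (study filter, with 0 of the 9), 0 (replicate block, with 0 of the 9) and 10 to 135 (1 library out, with 0 to 1 of the 9). The cause was not tested. Depth limits Esr2 and Cyp19a1, with at most 18 and 8 reads in a PFC library.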
